A study of Mus musculus with 8 samples.

Results

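The genes described here are 33 members of the amino acid stress response and of the cytosolic tRNA synthetase family, chosen by symbol among the 16593 genes that the annotation gives to the 25697 probes of an Illumina mouse BeadChip. A gene was represented by its probe of highest mean. The members comprise 5 transcriptional regulators, the enzymes of serine, one-carbon, asparagine, proline and sulfur metabolism, a receptor, a tRNA exporter, a translation inhibitor and 12 synthetases. Of the 33 genes, 30 had a probe. Mthfd1l, Pycr1 and Xpot were matched to none. A probe was kept when its detection p-value, which sets its intensity against negative controls, fell below 0.01 on 2 or more of the 8 arrays, and 27 members passed. Psph, Cars and Yars were detected on no array, and their levels are not described further. Of the 27, 22 were detected on all 8 arrays. The other 5, Nupr1, Gpt2, Cth, Chac1 and Vldlr, were undetected at day 1 with either stimulus, so they passed through day 3 alone.

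The samples were cultures of naive CD4+ T cells from mice of strain C57BL6/NCrl, sorted from lymph nodes and spleen as CD62L positive and CD44, CD25 and DX5 negative. All were activated through CD3e, by an antibody fixed to the plate, and through CD28, by an antibody in solution. The wells were coated either with Delta4-Ig, which carries the Notch ligand Delta-like 4, or with control Ig. At day 1 there was 1 Delta4-Ig sample and 1 control Ig sample, both from mouse 1. At day 3 there were 2 Delta4-Ig samples and 2 control Ig samples, from mouse 1 and mouse 2, and each mouse 1 sample was hybridised to 2 technical arrays, which were averaged. The labels state no age or sex, and with 2 mice the spread between animals rests on a single pair for each stimulus.

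When amino acids run short, or under other stresses, kinases phosphorylate the translation factor eIF2. General protein synthesis slows, while the mRNA of Atf4 is translated more. ATF4 protein binds C/EBP-ATF response elements and raises transcription of amino acid transporters, biosynthetic enzymes and tRNA synthetases. The synthetases join each amino acid to its tRNA, and activated T cells, which grow and divide, need both arms for protein synthesis. Atf4 is regulated largely in translation, so its mRNA level need not follow its activity.

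The promoters of the members show where such elements lie, and those printed are upstream stretches of 4 genes described in full below and of 3 synthetases. They come from RefSeq, build GRCm38.p6, in windows of 250 bases before to 50 after the gene's first base, and 27 of the 33 members had such a window. The motif searched was TGATGNAA, the core of the C/EBP-ATF response element, on both strands. It is in capitals below, where TTGCATCA and TTTCATCA are matches on the opposite strand, and each sequence runs 5′ to 3′ on the gene's strand.
Asns, minus strand, chr6:7693210-7693258: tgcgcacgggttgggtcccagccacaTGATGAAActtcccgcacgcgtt
Chac1, plus strand, chr2:119351023-119351082: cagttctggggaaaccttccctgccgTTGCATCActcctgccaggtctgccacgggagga
Nupr1, minus strand, chr7:126625547-126625606: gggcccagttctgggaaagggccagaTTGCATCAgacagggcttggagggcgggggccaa
Vldlr, plus strand, chr19:27216794-27216853: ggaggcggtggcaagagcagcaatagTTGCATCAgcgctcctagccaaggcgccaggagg
Aars, plus strand, chr8:111033704-111033763: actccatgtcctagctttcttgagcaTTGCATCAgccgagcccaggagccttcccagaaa
Gars, plus strand, chr6:55037945-55038000: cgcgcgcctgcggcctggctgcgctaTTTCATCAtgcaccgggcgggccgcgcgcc
Tars, minus strand, chr15:11399659-11399699: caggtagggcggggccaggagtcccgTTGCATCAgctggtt

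The core was found in the windows of 11 of 27 members (40.7%), against 3.97% of the 32851 promoters in the table. Most members were chosen as genes of this response, so a high share follows in part from the choice. A member was counted when any of its promoters matched, whereas the background counts single promoters. The core was in 5 of 8 synthetases and in 6 of the other 19 members. Counted from 0 at the gene's first base, the Asns match began at −23 and the Chac1 match at −193. Asns encodes asparagine synthetase, whose proximal promoter is a known amino acid response element. The E-box CACGTG, which reads the same on both strands and overlapped no match of the other motif, was in 6 members (22.2%), against 7.15% of all promoters. A match describes the letters of the window, and binding was not measured.

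**Figure D1:**
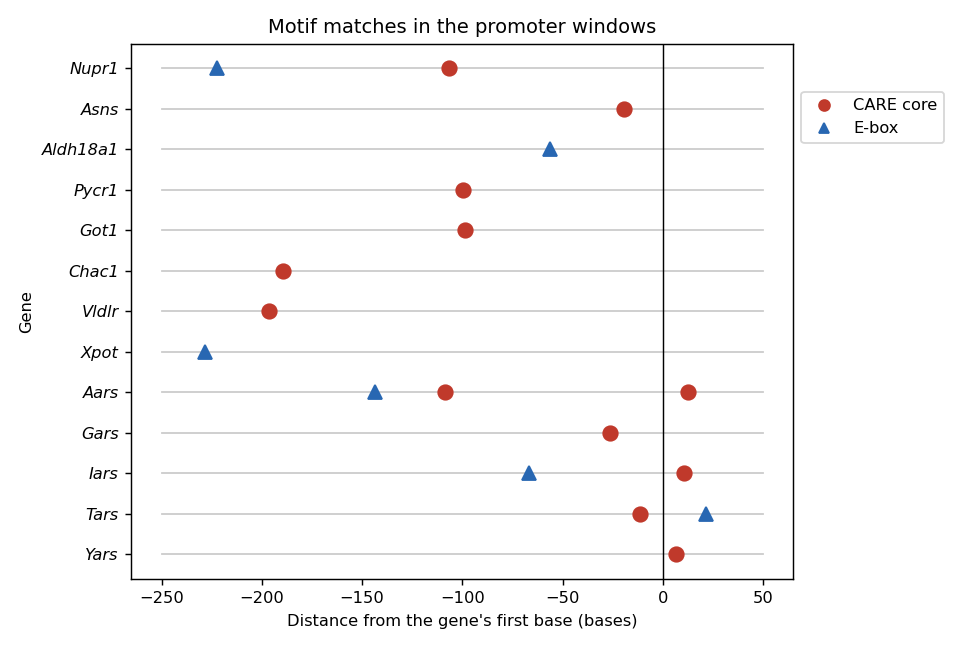
Positions of the 2 motifs in the promoter windows of the members that hold either of them, in bases from the gene's first base at 0 (circles, C/EBP-ATF response element core; triangles, E-box; grey lines, the window searched). The Asns, Gars and Tars matches lie close before the first base, and those of Chac1 and Vldlr lie farther upstream.

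Levels are log2 intensities after background correction and quantile normalization, and levels of different probes cannot be set against each other. The cell type was checked against its markers: 5 of 5 T cell markers with a probe were detected on all 8 arrays, while myeloid markers were detected on no array, B cell markers 1 of 4 on any array and NK cell markers 2 of 4, Klrd1 and Eomes. Cd8a was detected on no array, although Cd8b1 was detected on all 8. The Delta4-Ig day 3 sample of mouse 2 stood apart in its marker sums. Its summed T cell marker intensity was 54779, against 26281 to 36093 in the other 5 samples, and its summed NK cell marker intensity was 669, against 144 to 476. The higher T cell sum lay mainly in Cd3d, Cd3e and Cd3g, while Cd28, at a log2 level of 12.85, was within the range of the other samples. The NK cell sum was carried by 1 gene, Klrd1, at 9.13 in this sample against 5.11 to 7.41 in the others. Eomes was undetected on all Delta4-Ig day 3 arrays, and Ncr1 and Klrb1c on every array. Over the 10744 kept probes, mouse 2 minus mouse 1 at day 3 had an SD of 1.06 log2 units with Delta4-Ig and 0.746 with control Ig, whereas technical arrays differed with an SD of 0.285 and 0.284. The part of this sample in the results below was not tested beyond the values given for each mouse and those without each sample. In such bulk samples a difference in the share of responding cells cannot be told apart from one in RNA per cell.

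**Figure D2:**
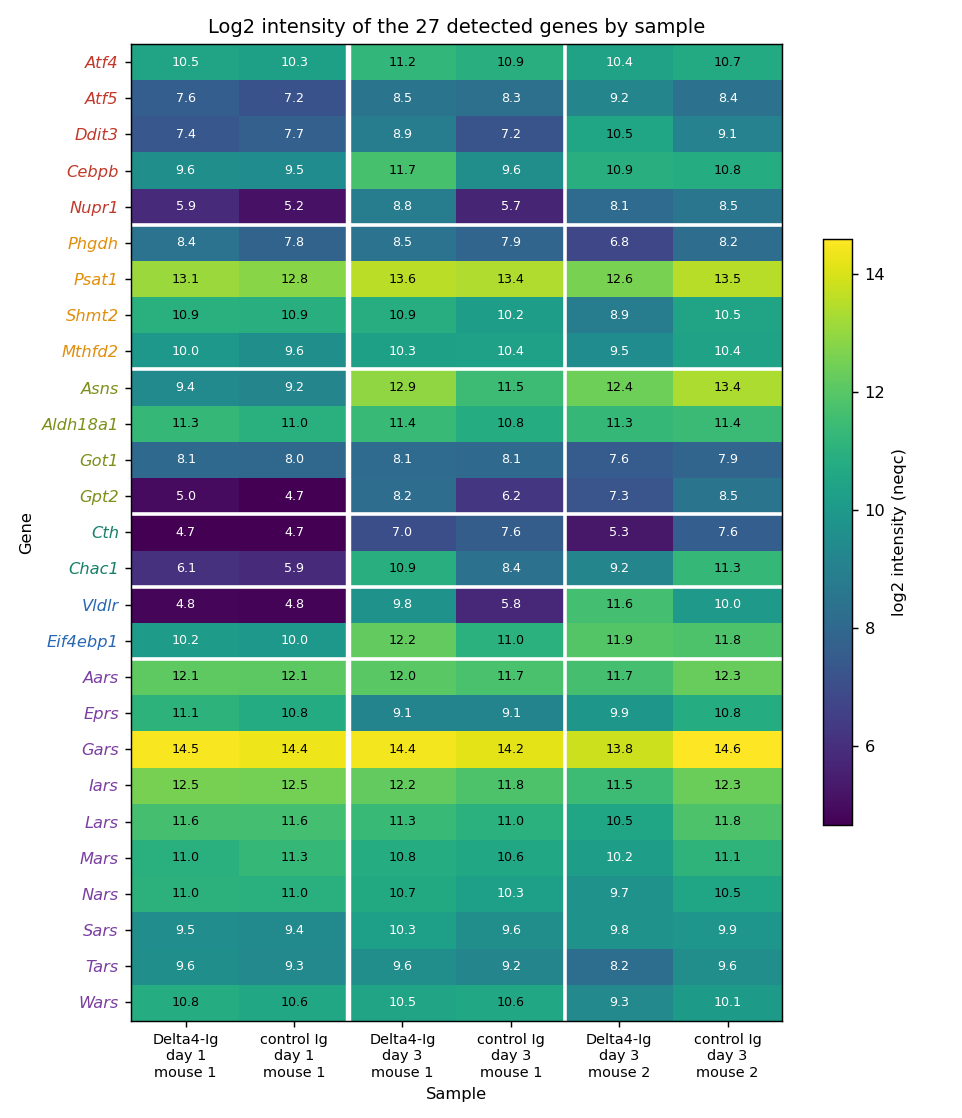
Log2 intensity of the 27 detected members (rows, coloured by role) in the 6 samples (columns); the number in each cell is the value. Vldlr, Gpt2, Cth and Nupr1 are dark at day 1, and most synthetases change little in colour along each row.

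At day 3 the question was whether Delta4-Ig changed these genes, and the members differed in opposite directions in the 2 mice. In mouse 1, 24 of 27 members were higher with Delta4-Ig than with control Ig, with a median difference of 0.38. In mouse 2, 5 of 27 were higher and the median was −0.81. The medians of all kept probes were −0.01 and −0.05. In all, 19 members (70.4%) were higher in mouse 1 and lower in mouse 2, against 21.5% of all kept probes (2309 of 10744). The 19 include Eprs, whose difference in mouse 1 was 0.00, and −0.01 by its second probe. No member went the other way, as 2173 of the 10744 probes did. Of the 22 members detected on all 8 arrays, 16 were higher in mouse 1 and lower in mouse 2. As a count over 2 mice it carries no test.

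No member passed the test at day 3. In limma without a term for the mouse, 0% of the 10744 probes passed the adjusted threshold of 0.05, and 302 had an unadjusted p under 0.05, none of them a member's. With the mouse as a block, 45 probes were higher (0.419%) and 31 lower (0.289%), and again 0 members were among them. In the blocked limma fit 3 of 27 members had an unadjusted p under 0.05, as did 1032 of the 10744 probes. Vldlr came closest, with an adjusted p of 0.0973 in limma's blocked fit.

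Among the regulators, Atf4, the central transcription factor of the response, had log2 levels of 11.24 and 10.37 in the Delta4-Ig samples of mouse 1 and mouse 2, against 10.90 and 10.71 in the control Ig samples. The groups overlapped and their means differed by 0.00 (SE 0.33, block). Ddit3, which encodes the pro-apoptotic factor CHOP, had 8.86 and 10.51 with Delta4-Ig and 7.24 and 9.06 with control Ig. It was higher with Delta4-Ig in each mouse, by 1.62 and 1.44, but its adjusted p was 0.105 with the block and 1.00 without, and the groups overlapped. A second Ddit3 probe gave differences of 2.10 and 1.06.

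Cebpb, a partner of ATF4 on response elements, had 11.68 and 10.93 with Delta4-Ig and 9.58 and 10.83 with control Ig. Nearly all of its difference came from mouse 1, 2.10 against 0.10 in mouse 2. Atf5, a relative of ATF4, had 8.50 and 9.17 with Delta4-Ig and 8.33 and 8.42 with control Ig. Nupr1, a stress-induced nuclear protein, had 8.83 and 8.14 with Delta4-Ig and 5.68 and 8.55 with control Ig. In mouse 1 it was detected on both Delta4-Ig arrays and on neither control Ig array, a difference of at least 5.61-fold, whereas in mouse 2 it was lower by 0.41 with Delta4-Ig.

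The serine and one-carbon enzymes were all lower with Delta4-Ig in mouse 2, by 0.87 to 1.60, and 3 of 4 were higher in mouse 1. Phgdh, the first enzyme of serine synthesis, had 8.46 and 6.79 with Delta4-Ig and 7.89 and 8.21 with control Ig. Shmt2, the mitochondrial enzyme that takes a carbon unit from serine, had 10.86 and 8.87 with Delta4-Ig and 10.23 and 10.46 with control Ig. For both, the Delta4-Ig sample of mouse 2 was the lowest of the 4 and that of mouse 1 the highest. Mthfd2, the next mitochondrial enzyme of the folate pathway, had 10.32 and 9.50 with Delta4-Ig and 10.35 and 10.37 with control Ig, so both Delta4-Ig samples lay below both control Ig samples.

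Asns had 12.92 and 12.40 with Delta4-Ig and 11.47 and 13.35 with control Ig. The control Ig samples lay on either side of both Delta4-Ig samples, and the difference was 1.45 in mouse 1 and −0.95 in mouse 2. The other 2 Asns probes had the same signs in each mouse. Gpt2, a mitochondrial alanine aminotransferase, had 8.19 and 7.28 with Delta4-Ig and 6.24 and 8.49 with control Ig. Its control Ig arrays of mouse 1 were both undetected.

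Chac1, which degrades glutathione, showed the widest swing between mice, with 10.93 and 9.19 in Delta4-Ig samples and 8.41 and 11.27 in control Ig samples. Its difference was 2.52 in mouse 1 and −2.09 in mouse 2, with a mean of 0.22 (SE 0.92, block). Cth, cystathionine gamma-lyase, which makes cysteine, had 7.03 and 5.29 with Delta4-Ig and 7.58 and 7.63 with control Ig. Both Delta4-Ig samples were below both control Ig samples. In mouse 2 Cth was undetected with Delta4-Ig, at least 3.61-fold lower than with control Ig, and the adjusted p was 0.329 with the block.

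Vldlr, the very low density lipoprotein receptor, had the largest mean difference, with 9.78 and 11.62 in Delta4-Ig samples and 5.81 and 10.04 in control Ig samples. It was higher with Delta4-Ig in both mice, by 3.97 and 1.58, but the groups overlapped. In mouse 1 it was detected on both Delta4-Ig arrays and on no control Ig array, at least 10.8-fold higher. Eif4ebp1, an inhibitor of cap-dependent translation, had 12.22 and 11.92 with Delta4-Ig and 11.02 and 11.83 with control Ig, a difference of 1.20 in mouse 1 and 0.09 in mouse 2. Over all members, 3 had both Delta4-Ig samples above both control Ig samples (Atf5, Cebpb and Eif4ebp1), against a background of 12.5% of probes, and 2 had both below (Mthfd2 and Cth), against 12.4%. These shares of 27 are near the background.

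**Figure D3:**
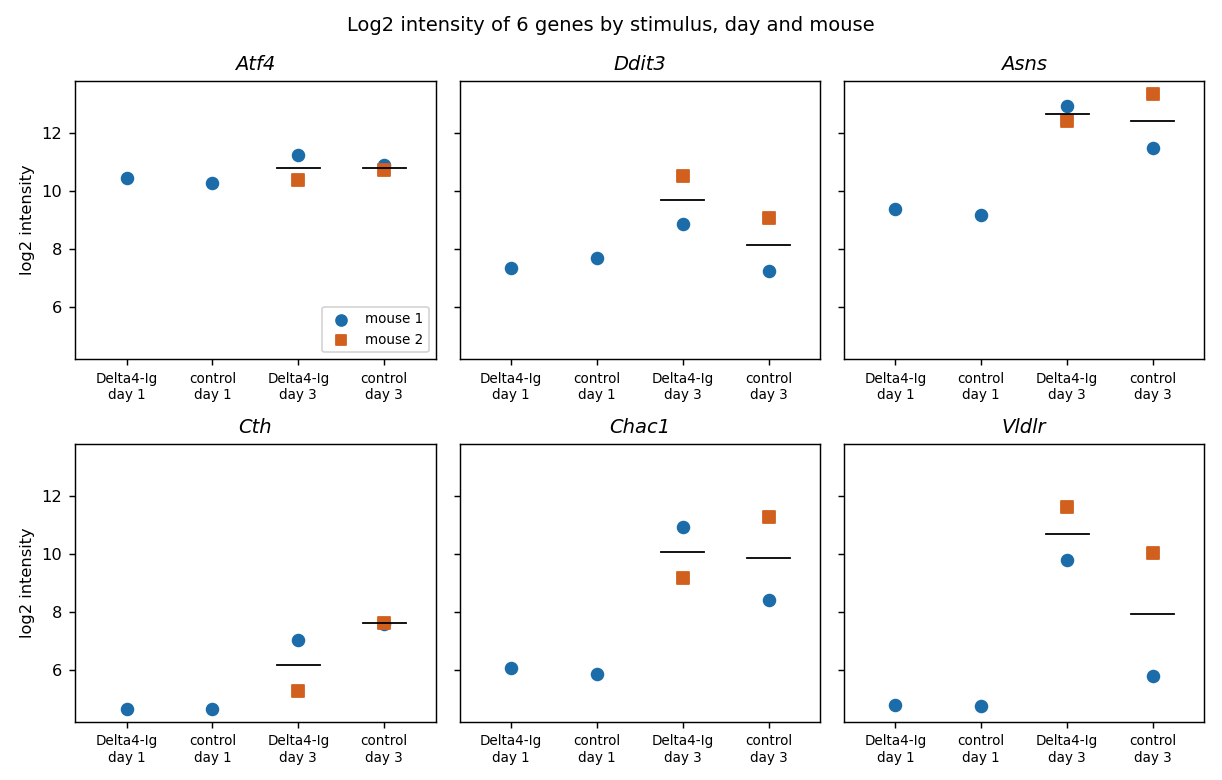
Log2 intensity of 6 members by stimulus and day, with 1 point per sample (circles, mouse 1; squares, mouse 2; bars, mean of the 2 day 3 samples). Asns and Chac1 of the 2 mice cross between stimuli at day 3, while Ddit3 and Vldlr are higher with Delta4-Ig in each mouse.

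The synthetases had like signs within each mouse. Of the 10 that passed the filter, 9 were at or above the control Ig level with Delta4-Ig in mouse 1 (Eprs by 0.00), with a median of 0.31 and a highest difference of 0.69, for Sars. In mouse 2 all 10 were lower with Delta4-Ig, by 0.10 to 1.33, with a median of −0.85. Lars, the leucyl-tRNA synthetase, had 11.34 and 10.52 with Delta4-Ig and 11.02 and 11.82 with control Ig. Its Delta4-Ig sample of mouse 2 was the lowest of the 4. Wars was the single synthetase lower in both mice, by 0.11 and 0.77, but its probes disagreed: others gave a higher level in mouse 1, and 1 was higher in mouse 2. A second Tars probe was lower in mouse 1, by 0.15, where the one used was higher by 0.38.

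**Figure D4:**
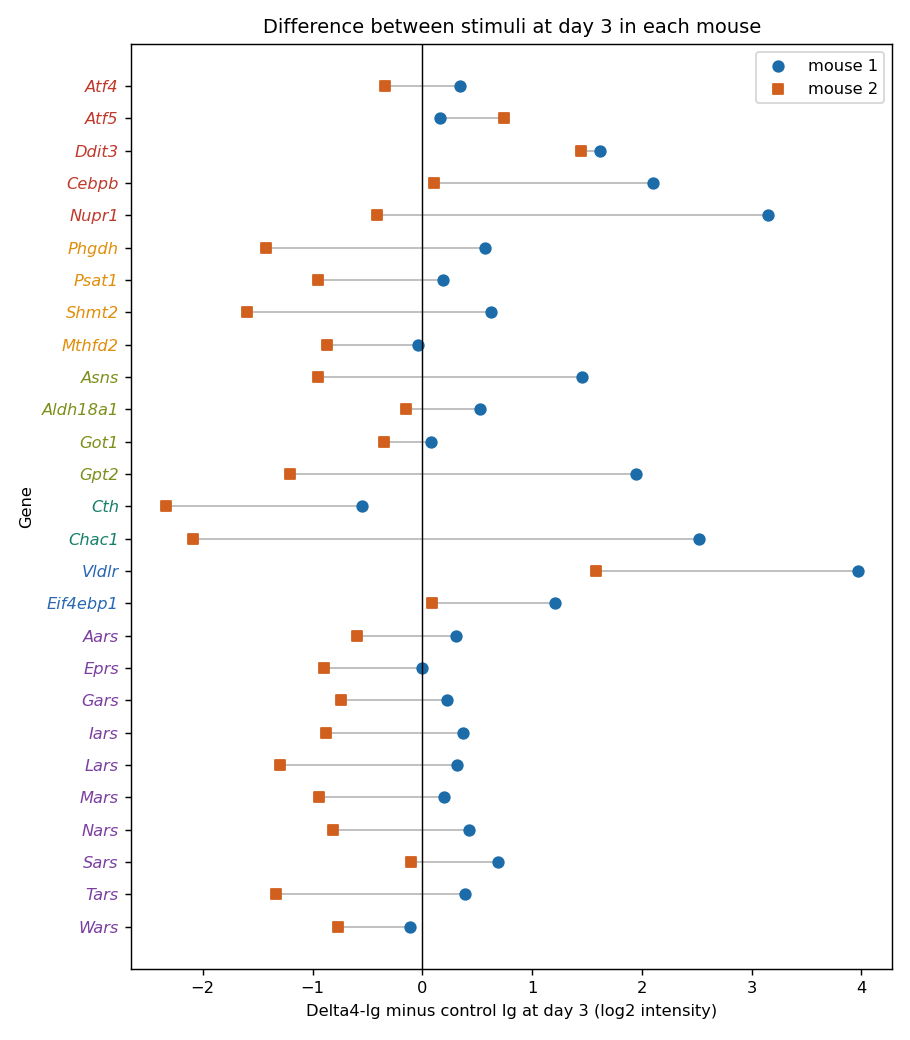
Delta4-Ig minus control Ig at day 3 in log2 units for each of the 27 members (circles, mouse 1; squares, mouse 2; colours of the names, role). The circles lie at or right of 0 for 24 members and the squares left of 0 for 22. Ddit3, Vldlr, Atf5, Cebpb and Eif4ebp1 lie right of 0 in both mice.

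The difference between the mice at day 3 had opposite signs with the 2 stimuli. It rearranges the same day 3 samples as above and is no further observation. From mouse 1 to mouse 2 at day 3 the members had a median difference of −0.73 with Delta4-Ig, with 4 of 27 higher in mouse 2. With control Ig the median was 0.51, with 24 of 27 higher in mouse 2. The differences of members ran from −1.99 to 1.84 with Delta4-Ig and from −0.49 to 4.23, the latter for Vldlr, with control Ig. The medians of all kept probes were −0.07 and −0.03. Scaling each array to its 75th percentile, in place of quantile normalization, gave 23 of 27 members higher in mouse 1 and 3 in mouse 2, with 8 of 10 synthetases higher in mouse 1.

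At day 1, with 1 sample per stimulus and so no test, the members lay close together. With Delta4-Ig 25 of 27 were above the control Ig sample, against 51.0% of all kept probes, by a median of 0.16 log2 units against 0.01. Of these, 5 were undetected with both stimuli. Of the 22 members detected on all 8 arrays 20 were above, against 50.7% of the probes so detected. Further genes of the pathway, listed below, did not share 1 direction. Of 15 other ATF4 targets, some undetected at day 1, 4 were above, with a median of −0.30. Of 9 other cytosolic synthetases and partners 8 were above, with a median of 0.07. No member differed by 2-fold, as 1.51% of probes did. Phgdh stood at 8.42 in the Delta4-Ig sample, against 7.81 in the control Ig sample, and Mthfd2 at 9.95 against 9.61. Atf5 stood at 7.61, against 7.16 in the control Ig sample. Ddit3, at 7.36 and 7.70, and Mars, lower by 0.30, were the 2 below the control Ig sample, and a second Mars probe was higher by 0.072. The largest difference, 0.73 for Nupr1, was between 2 undetected values. These sizes compare with a technical SD of 0.285 between arrays of 1 sample, which a single pair cannot separate from an effect of Delta4-Ig.

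Between day 1 and day 3 few members passed the test. Without a term for the mouse limma called no probe for the change over time (1492 at an unadjusted p under 0.05, smallest adjusted p 0.0512). In the blocked fit, 509 probes rose (4.74%) and 357 fell (3.32%). Among 27 members, 3 rose, Asns, Cth and Vldlr, and 1 fell, Eprs. Cth and Vldlr were kept through their day 3 arrays alone and had to be higher there. Of the 22 members detected on all 8 arrays 1 rose and 1 fell, against 3.24% and 2% of the 7913 probes so detected. Day 1 holds mouse 1 alone, so the blocked estimate of time is the change within mouse 1, and on data simulated for this contrast the blocked fit made more false calls than its threshold allows. Where a fold over time is given below as a lower bound, it sets the mean of both mice at day 3 against mouse 1 at day 1. Such a fold can include a difference between mice, which the blocked p-value leaves out.

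Asns had 9.38 with Delta4-Ig and 9.18 with control Ig at day 1, and in mouse 1 it reached 12.92 and 11.47 at day 3. The rise was 2.92 ± 0.55 log2 units (SE, adjusted p = 0.0224 with the block, 0.140 without). A second Asns probe also passed, with an adjusted p of 0.0166, and the remaining one did not, at 0.0963. Cth was undetected on day 1, at 4.68 with Delta4-Ig and 4.66 with control Ig, so its rise too has only a bound. With control Ig its level at day 3 was at least 2.59-fold above day 1. With Delta4-Ig it was detected at day 3 in mouse 1 only, so no bound over both mice is given. Over both stimuli, limma's adjusted p for the change over time was 0.0172 with the block and 0.222 without.

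Vldlr, undetected on day 1 at 4.80 with Delta4-Ig and 4.76 with control Ig, has only a bound. By the mean of both mice at day 3 it was at least 24.2-fold above day 1 with Delta4-Ig. With control Ig it was detected at day 3 in mouse 2 only, so no bound over both mice is given. Over both stimuli, limma's adjusted p for the change over time was 0.0203 with the block and 0.262 without. The control Ig values of mouse 1 lay below detection on both days. All 3 Vldlr probes that passed the filter passed the test with the block. Each was detected on 4 arrays, and as probes of 1 gene in the same samples they are no separate support. The remaining Vldlr probes, detected on 1 array and on 0, differed by 0.11 and −0.34 between the means of the days. Eprs, the glutamyl-prolyl-tRNA synthetase, had a level of 11.08 in the Delta4-Ig sample and 10.79 in the control Ig sample at day 1, and 9.13 with each in mouse 1 at day 3. It fell by 1.81 log2 units (SE 0.35, adjusted p = 0.0252 with the block, 0.435 without). In mouse 2 at day 3 it was 9.92 and 10.82, closer to the day 1 levels, and its second probe had an adjusted p of 0.0579.

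Other members had large differences between days that did not pass. Chac1, at 6.07 with Delta4-Ig and 5.85 with control Ig and undetected at day 1, was at least 15.5-fold above that level at day 3 with Delta4-Ig and at least 12.2-fold with control Ig, with all 6 day 3 arrays detected. Its adjusted p was 0.0549 with the block. Eif4ebp1, at 10.16 and 9.97 on day 1, differed by 1.55 ± 0.37 (adjusted p = 0.0501). Gpt2 and Nupr1 were undetected at day 1, and with control Ig also in mouse 1 at day 3, so no bound over both mice is given with control Ig. Gpt2, at 4.95 with Delta4-Ig and 4.68 with control Ig on day 1, was at least 3.11-fold above that at day 3 with Delta4-Ig. Nupr1, at 5.89 and 5.16, was at least 5.20-fold above with Delta4-Ig. Over both stimuli, limma's adjusted p with the block was 0.0763 for Gpt2 and 0.209 for Nupr1. Neither Atf4, at 10.45 and 10.30 on day 1, nor Ddit3 passed, with differences of 0.69 ± 0.33 and 0.52 ± 0.31.

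Over the synthetases, 1 of 10 had a higher mean at day 3 than at day 1, with a median change of −0.44, while 14 of the 17 other members had a higher mean, with a median of 1.22. Over all kept probes 43.2% were higher, with a median of −0.11. Synthetases had a median of −0.70 with Delta4-Ig (1 of 10 higher) and −0.23 with control Ig (3 of 10 higher). These means set day 3 samples of 2 mice against day 1 samples of mouse 1 alone. Within mouse 1 the order of the stimuli was reversed. The synthetase medians there were −0.23 with Delta4-Ig and −0.48 with control Ig, with 1 of 10 higher in each. The serine and one-carbon enzymes had 2 of 4 higher by the means over both mice, with a median of 0.018. Within mouse 1 they had 3 of 4 higher with each stimulus, with medians of 0.20 with Delta4-Ig and 0.32 with control Ig. The 17 other members thus did not all share 1 direction. Of those 17, 5 passed the filter only through day 3 and had to be higher there. Among the 12 detected on every array, 9 were higher, with a median of 0.39, against 41.2% of the probes so detected. Sars was the synthetase with a higher mean, and its second probe had the opposite sign (0.46 and −0.64 with the block).

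**Figure D5:**
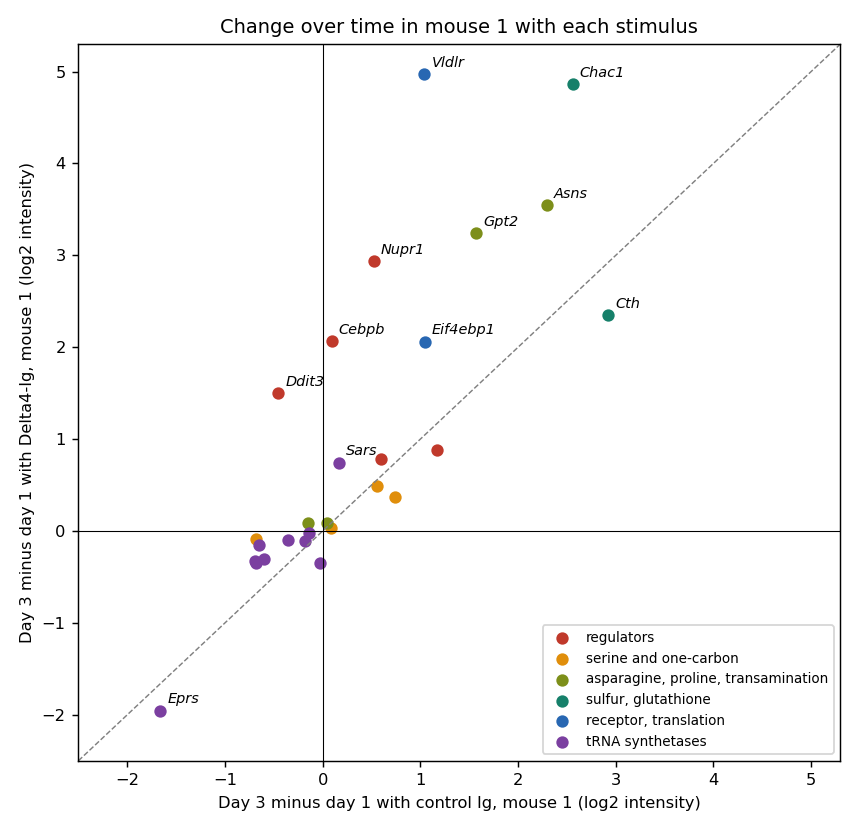
Day 3 minus day 1 in mouse 1 for each of the 27 members, with Delta4-Ig (vertical axis) and with control Ig (horizontal axis), in log2 units and coloured by role; the dashed line marks equal change. Vldlr, Chac1, Nupr1, Cebpb and Ddit3 lie above the line and Cth below it (Vldlr, Chac1, Nupr1, Gpt2 and Cth were undetected at day 1), and the synthetases cluster at or under 0 except Sars.

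In mouse 1 the difference between days was larger with Delta4-Ig for several members detected on all 8 arrays. Ddit3 differed by 1.50 with Delta4-Ig and by −0.46 with control Ig, and Cebpb by 2.07 and 0.09. Asns differed by 3.54 with Delta4-Ig and 2.29 with control Ig, and Eif4ebp1 by 2.06 and 1.05, whereas Atf5 differed by 0.88 and 1.17. The day 3 effect of Delta4-Ig minus that at day 1 was called for no probe by limma in either fit, with 64 probes at an unadjusted p under 0.05 without the block and 370 with it. Of the members, 0 and 2 were among those. The comparisons share their day 3 samples.

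The wider pathway was read from 6 lists of further genes. None of them had a gene called at day 3. The counts over time, with the block, stand against 4.74% of all kept probes that rose and 3.32% that fell. Of 12 genes of the eIF2 kinases and their partners 1 rose, Eif2ak2, the double-stranded RNA kinase, by 1.78 ± 0.35 (SE, adjusted p = 0.0259), and none fell. The kinase gene Eif2ak4 was detected on no array and Gcn1 had no probe, so neither is among the 12. Of 15 other ATF4 targets 3 rose and none fell. Ddit4, an inhibitor of mTORC1, rose by 2.95. Atf3, a stress-induced transcription factor, and Stc2, a secreted glycoprotein, were undetected at day 1, were kept through day 3 alone, and were at least 7.62-fold and at least 9.04-fold above day 1. Of 13 other one-carbon and amino acid enzymes 1 rose, Gldc of the glycine cleavage system, which was likewise undetected at day 1 and at least 4.37-fold above it.

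One gene fell in each of the remaining lists. Among 9 other cytosolic synthetases and their partners it was Farsa, which was undetected on 3 of the 4 mouse 1 arrays at day 3 (adjusted p = 0.0331). Among 11 mitochondrial synthetases it was Wars2, undetected on all 4 of those arrays (adjusted p = 0.0186). Wars2 with control Ig was undetected on every day 3 array and at least 4.08-fold lower than at day 1. Among 3 relatives of the tRNA exporter and the translation inhibitor it was Eif4ebp2, by 2.14. At day 3, genes higher in mouse 1 and lower in mouse 2 numbered 9 of 15 other ATF4 targets, 5 of 12 eIF2 kinases and partners, 4 of 9 other cytosolic synthetases and partners, 2 of 13 other one-carbon and amino acid enzymes, 0 of 11 mitochondrial synthetases and 0 of 3 relatives of the exporter and inhibitor, against 21.5% of all kept probes.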

How the data were processed

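The authors deposited, per array and probe, a linear intensity and a detection p-value, neither background-subtracted nor normalized, and a table of processed log2 values. GenomeStudio and limma are named, without versions, per the submitters' processing notes. The deposited log2 values, whose scale is not stated, lay within 0.0417 of those computed here, with column medians of 5.28 to 5.29, and served as an alternative and to choose each gene's probe. From the deposited intensities, neqc computed background-corrected, quantile-normalized log2 levels (limma 3.58.1, R 4.3.3, offset 16). Between 8940 and 10543 probes (34.8% to 41.0%) were detected per array, and the number of arrays limits precision.

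Technical arrays were averaged, giving 6 samples, and limma was fitted to 4 groups over all 10744 kept probes, with Benjamini-Hochberg adjustment and a threshold of 0.05. The main fit had no mouse term (2 residual degrees of freedom). The other held the mouse number as a block (1 residual degree of freedom), since the labels give 1 number to samples of 1 animal. Differences between mice correlated at r = 0.607 between stimuli across probes. Rose and fell refer to the blocked fit. Both fits were tested on data simulated for the day 3 contrast and for the change over time. They returned the effects put in, but the blocked fit's share of false calls exceeded its threshold under both noise models tried, the second of which was added after the first had shown this, so its calls are less certain than their adjusted p-values state. A gene undetected in a group has a bound: the bright group's mean over the array's detection floor, or over the gene's own value where that was higher. A bound is given only where the gene was detected on every array of the bright group. In bounds over time, day 3 holds both mice and day 1 holds mouse 1 alone. Values in every sample are given for Atf4, Ddit3, Asns, the members with the largest differences (8 at day 3, 5 at day 1, 8 over time) and those past the threshold with the block; of the further lists, genes past that threshold are named. Members and lists were chosen with earlier results of these data known. Alternatives covered normalization, background, offset, filter, technical arrays and each day 3 sample left out.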

Additional observations from a re-analysis of the deposited data

How the results depend on the processing

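Without the mouse term no probe was called at day 3, and leaving out each day 3 sample in turn gave 0 to 15, where a lone sample is assumed to vary like the other groups. With the replicate block 76 were called, and with the block and another setting, added after its calls were seen, 82 (deposited log2 values), 53 (offset of 50), 188 (75th percentile scaling), 90 (first array of mouse 1), 21 (detection on all 8 arrays) and 0 (no background correction or no filter). Over time the counts were 0 without the block, 27 with an offset of 50, 44 with detection on all 8 arrays and 63 to 210 with a sample left out. With the replicate block they were 866, and 885, 271 (no background correction), 683, 1295, 803 and 624 in the same settings, and 0 with no filter. Asns, Cth, Vldlr and Eprs lost their calls over time with the block and no background correction (adjusted p 0.0889, 0.0906, 0.0674 and 0.0611) and with no filter (0.194, 0.153, 0.187 and 0.129); the cause was not tested. Without the block, Asns, Chac1 and Vldlr passed over time when either control Ig day 3 sample was left out, and Nupr1 and Gpt2 without that of mouse 1. The replicate block turned the Phgdh change over time to 0.061. At day 3 Atf4 turned to −0.058 with 75th percentile scaling and to −0.011 with the first array. With a sample left out, day 3 differences ran from −1.21 to 1.65 for Chac1, −0.69 to 1.19 for Asns, −0.75 to 1.49 for Gpt2, −0.43 to 0.43 for Atf4, −1.48 to 0.51 for Shmt2, −1.26 to 0.41 for Phgdh, −0.068 to 2.80 for Nupr1 and −1.30 to 0.40 for Eprs, and the Phgdh change over time from −0.70 to 0.14.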
